A study of Mus musculus with 15 samples.

Results

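Expression of 7 genes of steroid metabolism and glucocorticoid response was examined in mesenchymal cells of mouse thymus and lymph node. Of these, 4 concern glucocorticoids (Hsd11b1, Nr3c1, Fkbp5 and Tsc22d3) and 3 concern oxysterols (Ch25h, Cyp7b1 and Hsd3b7). They are 7 of the 18718 genes with an array row of a single gene symbol, and each gene's row was chosen by the highest mean over the 15 arrays. That choice mattered for Hsd3b7 alone, which had 2 such rows. The cells came from C57BL/6 mice aged 2 weeks and were all sorted as PDGFRβ-positive after digestion with liberase and DNase I. From thymus, cells with podoplanin (PDPN) but without BP3, the protein of Bst1, made up the PDPN+BP3- population, and cells without podoplanin the PDPN- population. Lymph nodes, taken from inguinal, axillary and brachial sites and pooled, gave the same 2 populations and a PDPN+BP3+ one. In both organs the PDPN- gate also required Ly51, which Enpep encodes. Each population was measured on 3 arrays from 3 individual experiments, with 3 mice pooled per thymus sample and 10 to 11 per lymph node sample, so organ and pool size cannot be told apart.

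Glucocorticoid action depends on the hormone made inside the cell as well as on the hormone in blood. The enzyme encoded by Hsd11b1 sits in the endoplasmic reticulum and turns inert 11-dehydrocorticosterone into active corticosterone, using NADPH that H6pd supplies in the same compartment, whereas Hsd11b2 runs the opposite reaction. The active hormone binds the receptor encoded by Nr3c1, which then switches on genes such as Fkbp5 and Tsc22d3. Oxysterols are oxidised forms of cholesterol: Ch25h adds a hydroxyl group to the side chain of cholesterol, Cyp7b1 adds another to the ring, and Hsd3b7 oxidises the product further and ends its activity as a ligand of Gpr183, the receptor that guides B cells, T cells and dendritic cells within lymphoid tissue.

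All values are RMA signals on a log2 scale, as deposited. The table ran from 1.07 to 12.07 with a median of 3.80, and a signal near or below that median need not stand above background, which was not measured. Differences are therefore differences of signal, not ratios of RNA. Arrays of 1 population correlated at 0.987 to 0.995 across genes. The median of an array was 3.77 to 3.885 except in thymus PDPN+BP3- replicate 1, where it was 3.58, and the members' differences that use this array are also given without it. Podoplanin signal was 7.90 to 9.19 in the PDPN+ arrays and 2.77 to 3.48 in the PDPN- arrays, Bst1 was 8.56 to 8.94 in the PDPN+BP3+ arrays and at most 3.80 elsewhere, and Enpep was 7.63 to 8.15 in the PDPN- arrays and at most 4.77 elsewhere. T lineage markers averaged 3.43 to 4.93 per array in thymus PDPN+BP3- cells and 4.93 to 5.6 in thymus PDPN- cells, with 8 of 9 markers above the table median in each, against 2.62 to 2.83 and 0 of 9 in the lymph node populations. In bulk samples of this kind, fewer expressing cells and less RNA per cell cannot be told apart.

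Hsd11b1 was high in a single population. Its signal was 8.37, 8.21 and 8.05 in the 3 thymus PDPN+BP3- arrays, against 3.64, 3.38 and 3.20 in thymus PDPN- cells. In lymph node it was 3.99, 2.72 and 3.47 in PDPN+BP3- cells. The PDPN+BP3+ cells gave 2.99, 2.57 and 3.42, and the PDPN- cells 3.03, 2.24 and 2.23. Every thymus PDPN+BP3- array thus lay far above all 12 others, and of those 12 only 1, a lymph node PDPN+BP3- array, lay above the table median. The other 4 populations, ordered from thymus PDPN- through lymph node PDPN+BP3- and PDPN+BP3+ to lymph node PDPN-, each overlapped the next.

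Thymus PDPN+BP3- cells exceeded thymus PDPN- cells by 4.80 ± 0.29 (SE, n = 3 arrays each, 95% interval 4.20 to 5.41), with an adjusted p of 1.23e-09 in the limma fit over all genes. Without thymus PDPN+BP3- replicate 1 the difference was 4.72. The matching lymph node PDPN+BP3- cells were lower than the thymus cells by a log2 difference of -4.82 ± 0.29 (limma adjusted p = 6.74e-09), and the lymph node PDPN+BP3+ cells by -5.22 ± 0.29 (limma adjusted p = 7.14e-10). Without that replicate these were -4.74 and -5.14.

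Within lymph node, PDPN+BP3- cells had more Hsd11b1 signal than PDPN- cells by 0.89 ± 0.29 (limma adjusted p = 0.0323). Their arrays overlapped, and both populations were near or below the table median. This call was lost without lymph node PDPN- replicate 2 (adjusted p = 0.123), PDPN- replicate 3 (0.1215), PDPN+BP3- replicate 1 (0.181) or PDPN+BP3- replicate 3 (0.0855), and when only these populations were fitted (0.0943). The difference between the organs in this subset contrast was tested directly: it was smaller in lymph node than in thymus by -3.91 ± 0.40 (95% interval -4.77 to -3.05, limma adjusted p = 6.82e-06), and by -3.83 without thymus PDPN+BP3- replicate 1. Lymph node and thymus PDPN- cells differed by -0.91 ± 0.29, which missed the threshold (limma adjusted p = 0.0596). It passed in 6 of 14 other settings: without lymph node PDPN- replicate 1 (-1.17, adjusted p = 0.0156), with the replicate block (0.0206), with low genes removed (0.0257), in a fit of these populations only (0.0323), with the trended prior (0.0425) and after median centring (0.0441). Over the 14 settings the difference ran from -1.17 to -0.77. Removal of low genes kept Hsd11b1 only through thymus PDPN+BP3- cells, and the means of both PDPN- populations were below the table median.

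The stretch of 250 bases before 1 annotated start of Hsd11b1 is shown because this gene had the widest span of population means among the 7, 5.71 on the log2 scale. It lies on the minus strand at chr1:193242361-193242610 of GRCm38.p6 (RefSeq), inside the annotated extent of the gene (193221640 to 193264045), so it does not precede the gene's outermost 5′ end. Capitals mark the CCAAT box, CCAAT, 72 to 68 bases before the start.
Hsd11b1: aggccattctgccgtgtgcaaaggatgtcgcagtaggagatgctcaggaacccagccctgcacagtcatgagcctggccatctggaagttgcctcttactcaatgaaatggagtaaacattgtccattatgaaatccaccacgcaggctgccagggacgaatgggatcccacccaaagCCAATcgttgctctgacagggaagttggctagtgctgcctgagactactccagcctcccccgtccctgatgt
It was the 1 match among 7 motifs searched on both strands, and 33.8% of the 32817 promoter windows of the same length hold it. The other motifs were the glucocorticoid receptor half-site AGAACA (in 16.1% of windows), the cAMP response element TGACGTCA (1.55%), the AP-1 site TGANTCA (6.75%), the C/EBP site TTGCNNAA (9.57%), the E-box CACGTG (6.02%) and the TATA box TATAAA (12.4%). No match says only that these letters are absent from this window.

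**Figure D1:**
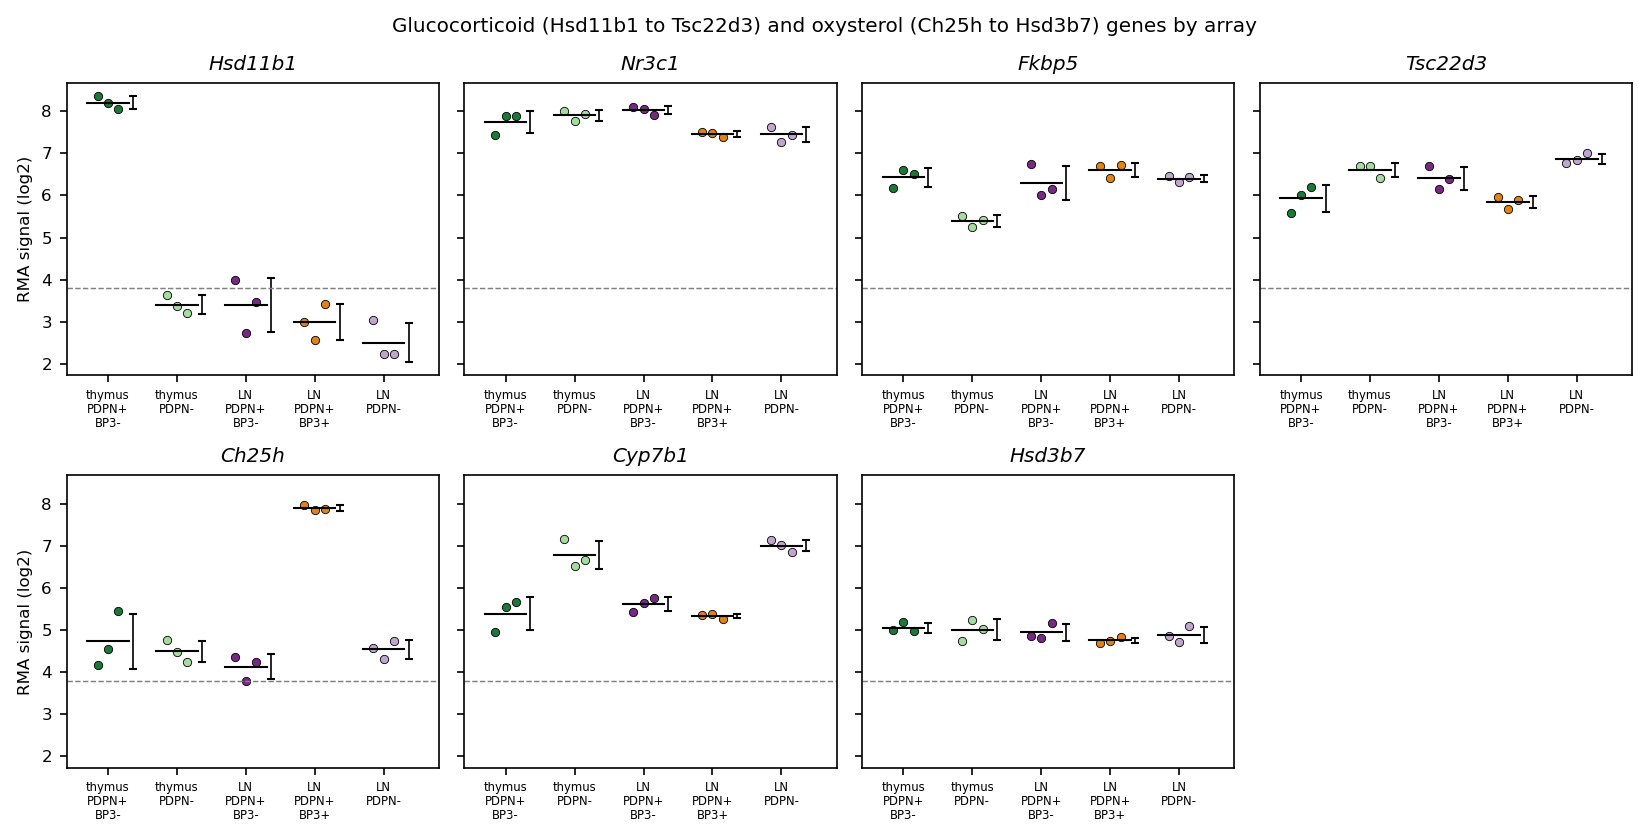
RMA signal (log2, vertical axis) of the 7 genes on each array (points) of the 5 populations (LN, lymph node), with population means (horizontal lines), SD (bars, n = 3 arrays) and the table median of 3.80 (dashed). Hsd11b1 stands out in thymus PDPN+BP3- cells, Ch25h in lymph node PDPN+BP3+ cells, and Cyp7b1 is higher in both PDPN- populations.

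The receptor gene Nr3c1 was well above the table median on every array and varied little. Signals were 7.44, 7.90 and 7.90 in thymus PDPN+BP3- cells and 8.02, 7.76 and 7.94 in thymus PDPN- cells. In lymph node they were 8.11, 8.06 and 7.92 in PDPN+BP3- cells, 7.52, 7.48 and 7.39 in PDPN+BP3+ cells and 7.64, 7.27 and 7.45 in PDPN- cells. The lymph node PDPN+BP3- arrays lay above all arrays of the other lymph node populations, and the population means spanned 0.58. Lymph node PDPN+BP3- cells were higher than PDPN- cells by 0.58 ± 0.14 (limma adjusted p = 0.00467), and PDPN+BP3+ cells were lower than PDPN+BP3- cells by -0.57 ± 0.14 (limma adjusted p = 0.00726). Lymph node PDPN+BP3+ and PDPN- cells differed by 0.01, with a 95% interval of -0.28 to 0.30.

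In thymus the subsets differed in Nr3c1 by -0.16 ± 0.14 (limma adjusted p = 0.439), with the interval from -0.45 to 0.13, and by -0.01 without PDPN+BP3- replicate 1. The subset contrast differed between the organs by 0.74 ± 0.19 (limma adjusted p = 0.0183), and by 0.58 without thymus PDPN+BP3- replicate 1 (0.0343). This call was lost without thymus PDPN- replicate 1 (adjusted p = 0.0535), without lymph node PDPN- replicate 2 (0.0529) and under cyclic loess (0.0548). Nr3c1 was lower in lymph node than in thymus PDPN- cells by -0.45 ± 0.14 (limma adjusted p = 0.0466). That call was lost when thymus PDPN- replicate 1 (0.173), 2 (0.0503) or 3 (0.126) or lymph node PDPN- replicate 2 (0.189) or 3 (0.108) was left out, with the replicate block (0.0681), in a fit of these populations only (0.0699) and with low genes removed (0.0519). Lymph node PDPN+BP3+ and thymus PDPN+BP3- cells differed by -0.28 (limma adjusted p = 0.139), and by -0.44 without thymus PDPN+BP3- replicate 1 (0.0172).

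Fkbp5 encodes a co-chaperone that holds the receptor in a state of low hormone affinity and is itself induced by it. Its signal was 6.18, 6.61 and 6.52 in thymus PDPN+BP3- cells and 5.52, 5.25 and 5.42 in thymus PDPN- cells. In lymph node it was 6.76, 6.00 and 6.15 in PDPN+BP3- cells, 6.69, 6.41 and 6.72 in PDPN+BP3+ cells and 6.46, 6.32 and 6.43 in PDPN- cells. The thymus PDPN- arrays were thus the lowest of all 15, and the other 4 populations overlapped. The difference between the thymus subsets was 1.04 ± 0.17 (limma adjusted p = 1.99e-04), and 1.17 without PDPN+BP3- replicate 1. Lymph node PDPN- cells exceeded thymus PDPN- cells by 1.01 ± 0.17 (limma adjusted p = 9.15e-04). PDPN+BP3+ minus PDPN+BP3- cells of the lymph node gave a difference of 0.30 (limma adjusted p = 0.313), and of 0.53 without PDPN+BP3- replicate 1 (0.0245). The lymph node PDPN+BP3- and PDPN- cells differed by -0.10, with an interval of -0.47 to 0.27, and the contrast differed between the organs by -1.14 ± 0.24 (95% interval -1.66 to -0.62, limma adjusted p = 0.00488), or by -1.27 without thymus PDPN+BP3- replicate 1. Epithelial markers averaged 4.14 to 4.56 on the thymus PDPN- arrays, with Foxn1 and Psmb11 among the 4 of 9 above the table median, and 3.40 to 4.17 on the thymus PDPN+BP3- arrays, which overlapped them. Of 9 epithelial markers 4 were lower in thymus PDPN+BP3- cells (1 without replicate 1), and of 9 T lineage markers 3 were (1 without it), with 0 higher in either list. In this comparison 28.5% of all genes passed, 1922 higher and 3415 lower. The part of epithelial and T lineage cells in the low Fkbp5 signal was not tested.

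Tsc22d3 encodes GILZ, a leucine zipper protein through which glucocorticoids restrain inflammatory signalling. Unlike Fkbp5, it was lower in the thymus PDPN+BP3- cells: 5.59, 6.00 and 6.21, against 6.71, 6.69 and 6.41 in thymus PDPN- cells. In lymph node it was 6.69, 6.15 and 6.39 in PDPN+BP3- cells, 5.97, 5.69 and 5.89 in PDPN+BP3+ cells and 6.78, 6.84 and 7.0 in PDPN- cells. The lymph node PDPN- arrays were the highest of all, and the lymph node PDPN+BP3+ and thymus PDPN+BP3- arrays overlapped at the bottom. The thymus subsets differed by -0.67 ± 0.16 (limma adjusted p = 0.00524), and by -0.50 without PDPN+BP3- replicate 1 (adjusted p = 0.0297).

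In lymph node, Tsc22d3 was lower in PDPN+BP3+ than in PDPN- cells by -1.02 ± 0.16 (limma adjusted p = 1.50e-04) and lower than in PDPN+BP3- cells by -0.56 ± 0.16 (limma adjusted p = 0.0264). The second of these was lost without PDPN+BP3+ replicate 2 (adjusted p = 0.125) or 3 (0.0562) and without PDPN+BP3- replicate 1 (0.144) or 3 (0.0636). Lymph node PDPN+BP3- and PDPN- cells differed by -0.46 (limma adjusted p = 0.0531), and that difference passed the threshold without PDPN+BP3- replicate 1 (-0.60, adjusted p = 0.0208), after median centring (0.0153), under cyclic loess (0.00916) and with low genes removed (0.0417). Lymph node and thymus PDPN+BP3- cells differed by 0.48 (limma adjusted p = 0.0576), which passed without thymus replicate 3 (0.62, adjusted p = 0.0205) or lymph node replicate 2 (0.61, 0.0337) and with low genes removed (0.0467). It was 0.31 without thymus replicate 1 (0.263) and 0.24 under cyclic loess (0.294). Immediate early genes, which respond to handling of cells as well as to signals in tissue, averaged 8.98 to 9.40 per array in the thymus PDPN+BP3- population and 9.21 to 9.39 in the lymph node PDPN+BP3+ population. They averaged 9.40 to 9.58 in thymus PDPN-, 9.69 to 9.76 in lymph node PDPN- and 9.78 to 9.90 in lymph node PDPN+BP3- arrays. All 12 were above the table median in every population, and their part in the Tsc22d3 differences was not tested.

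Ch25h marked another single population. In the PDPN+BP3+ cells of lymph node its signal was 7.97, 7.85 and 7.88, against 4.35, 3.79 and 4.24 in lymph node PDPN+BP3- cells and 4.58, 4.30 and 4.74 in lymph node PDPN- cells. Thymus gave 4.18, 4.56 and 5.46 in PDPN+BP3- cells and 4.76, 4.47 and 4.25 in PDPN- cells. The lowest PDPN+BP3+ array was well above the highest of the other 12, and the other 4 populations overlapped in order. The PDPN+BP3+ cells exceeded the lymph node PDPN- cells by 3.36 ± 0.25 (limma adjusted p = 2.22e-08) and the lymph node PDPN+BP3- cells by 3.77 ± 0.25 (limma adjusted p = 1.04e-08). They exceeded the thymus PDPN+BP3- cells by 3.17 ± 0.25 (limma adjusted p = 5.06e-08), or by 2.89 without thymus replicate 1.

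Macrophages and dendritic cells also make Ch25h, so myeloid markers were read beside it. The 14 markers averaged 3.04 to 3.12 per array in the PDPN+BP3+ cells, 2.98 to 3.10 on the lymph node PDPN+BP3- arrays and 2.63 to 2.67 on the lymph node PDPN- arrays, with 3, 2 and 1 of 14 above the table median. Those above it in PDPN+BP3+ cells were Cd14, Cd68 and Lyz2, at 6.99 ± 0.21, 5.18 ± 0.45 and 4.003 ± 0.55 (SD, n = 3). In lymph node PDPN+BP3- cells these genes were at 5.09 ± 0.15, 5.75 ± 0.13 and 3.77 ± 0.46, and in lymph node PDPN- cells at 2.39 ± 0.12, 6.73 ± 0.19 and 2.39 ± 0.14. The other 11 markers, among them Csf1r, Adgre1, Itgax and Ptprc, were below the table median in all 3 lymph node populations. Against PDPN- cells, 3 of the 14 were higher in PDPN+BP3+ cells and 1 lower, where 27.3% of all genes passed. Against PDPN+BP3- cells 1 was higher and 0 lower, where 16.2% of all genes passed. The part of myeloid cells in the Ch25h signal was not tested.

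In the remaining comparisons Ch25h missed the threshold: thymus subsets differed by 0.24 (interval -0.29 to 0.77, and 0.52 without PDPN+BP3- replicate 1), lymph node PDPN+BP3- and PDPN- cells by -0.41 (interval -0.94 to 0.11), and PDPN- cells of the organs by 0.05 (interval -0.48 to 0.57). Lymph node and thymus PDPN+BP3- cells differed by -0.61 (limma adjusted p = 0.113). Without thymus PDPN+BP3- replicate 1 that difference was -0.88 and passed the threshold (adjusted p = 0.0183), as it did under cyclic loess (0.0110) and median centring (0.0335). Without thymus PDPN+BP3- replicate 3, the highest of the thymus arrays, it was -0.24 (0.440).

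The 250 bases before the start of Ch25h are shown because they held more of the searched motifs than the Hsd11b1 stretch did. They lie on the minus strand at chr19:34475149-34475398 of GRCm38.p6 (RefSeq). Capitals mark, in order, a TATA box (TATAAA, 151 to 146 bases before the start), a C/EBP site on the opposite strand (TTAAGCAA, 112 to 105 bases before) and a cAMP response element (TGACGTCA, 61 to 54 bases before), none of which overlap.
Ch25h: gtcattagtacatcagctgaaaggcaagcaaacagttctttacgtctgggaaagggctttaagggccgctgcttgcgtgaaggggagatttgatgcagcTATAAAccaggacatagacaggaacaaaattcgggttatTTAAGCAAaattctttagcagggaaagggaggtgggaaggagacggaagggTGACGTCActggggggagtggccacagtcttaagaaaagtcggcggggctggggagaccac
Windows were given for 5 of the 7 genes. The Fkbp5 window held an E-box and 2 CCAAT boxes, 1 of 3 Tsc22d3 windows held a glucocorticoid receptor half-site, and the Hsd3b7 window held none of the motifs. A match is a description of letters and not evidence of binding.

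Cyp7b1, the hydroxylase that acts on the product of Ch25h, was higher in PDPN- than in PDPN+ cells of both organs. The PDPN- gate also required Ly51, so lack of podoplanin and presence of Ly51 cannot be told apart. Cyp7b1 signal was 7.16, 6.52 and 6.66 in thymus PDPN- cells and 7.13, 7.03 and 6.86 in lymph node PDPN- cells. On the thymus PDPN+BP3- arrays it was 4.95, 5.55 and 5.67, on the lymph node PDPN+BP3- arrays 5.44, 5.64 and 5.77, and on the lymph node PDPN+BP3+ arrays 5.35, 5.37 and 5.27. All 6 PDPN- arrays lay above all 9 PDPN+ arrays, while the PDPN- populations overlapped each other, as did neighbouring PDPN+ populations. The PDPN+BP3- cells were lower than the PDPN- cells by -1.39 ± 0.18 in thymus (limma adjusted p = 1.82e-05) and by -1.39 ± 0.18 in lymph node (limma adjusted p = 2.18e-05). The difference between those contrasts was 0.00 ± 0.26, with an interval of -0.55 to 0.55. Without thymus PDPN+BP3- replicate 1 the thymus difference was -1.17 and the difference between the contrasts -0.22.

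In lymph node PDPN+BP3+ cells, where Ch25h was high, Cyp7b1 was lower than in PDPN- cells by -1.68 ± 0.18 (limma adjusted p = 2.46e-06). It differed from lymph node PDPN+BP3- cells by -0.29 (interval -0.68 to 0.10) and from thymus PDPN+BP3- cells by -0.06 (interval -0.45 to 0.33), the latter becoming -0.28 without thymus replicate 1 (limma adjusted p = 0.267). Between organs it differed by 0.23 in PDPN+BP3- cells (0.01 without thymus replicate 1) and by 0.23 in PDPN- cells, neither past the threshold. The mean of 10 pericyte and smooth muscle markers was also higher in the PDPN- arrays, at 9.20 to 9.55, than in the thymus PDPN+BP3- (5.86 to 6.02), lymph node PDPN+BP3- (6.58 to 7.0) and lymph node PDPN+BP3+ arrays (7.41 to 7.50). Against PDPN- cells, 0 were higher and 10 lower in thymus PDPN+BP3- cells (28.5% of all genes passed). In lymph node it was 0 and 9 for PDPN+BP3- cells (23.1%) and 1 and 9 for PDPN+BP3+ cells (27.3%). The part of such cells in the Cyp7b1 differences was not tested.

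Hsd3b7, the enzyme that inactivates the Gpr183 ligand, varied least of the 7, with population means spanning 0.30. Signals were 5.0, 5.19 and 4.98 in thymus PDPN+BP3- cells and 4.75, 5.25 and 5.03 in thymus PDPN- cells. In lymph node they were 4.85, 4.81 and 5.17 in PDPN+BP3- cells, 4.70, 4.73 and 4.83 in PDPN+BP3+ cells and 4.86, 4.72 and 5.09 in PDPN- cells. Each population overlapped its neighbours in order of the mean. None of the 7 pairwise differences passed the threshold in limma, 1 of them had an unadjusted p under 0.05, and the widest was -0.30 between lymph node PDPN+BP3+ and thymus PDPN+BP3- cells (limma adjusted p = 0.128), or -0.33 without thymus replicate 1 (0.164). That one passed when arrays were centred on their medians (-0.44, adjusted p = 0.0283) and under cyclic loess (-0.57, adjusted p = 0.00916). The intervals of the subset differences ran from -0.25 to 0.35 in both organs. The row not kept had population means of 4.45 to 4.80 and a mean over the 15 arrays of 4.58, against 4.93 for the row kept.

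**Figure D2:**
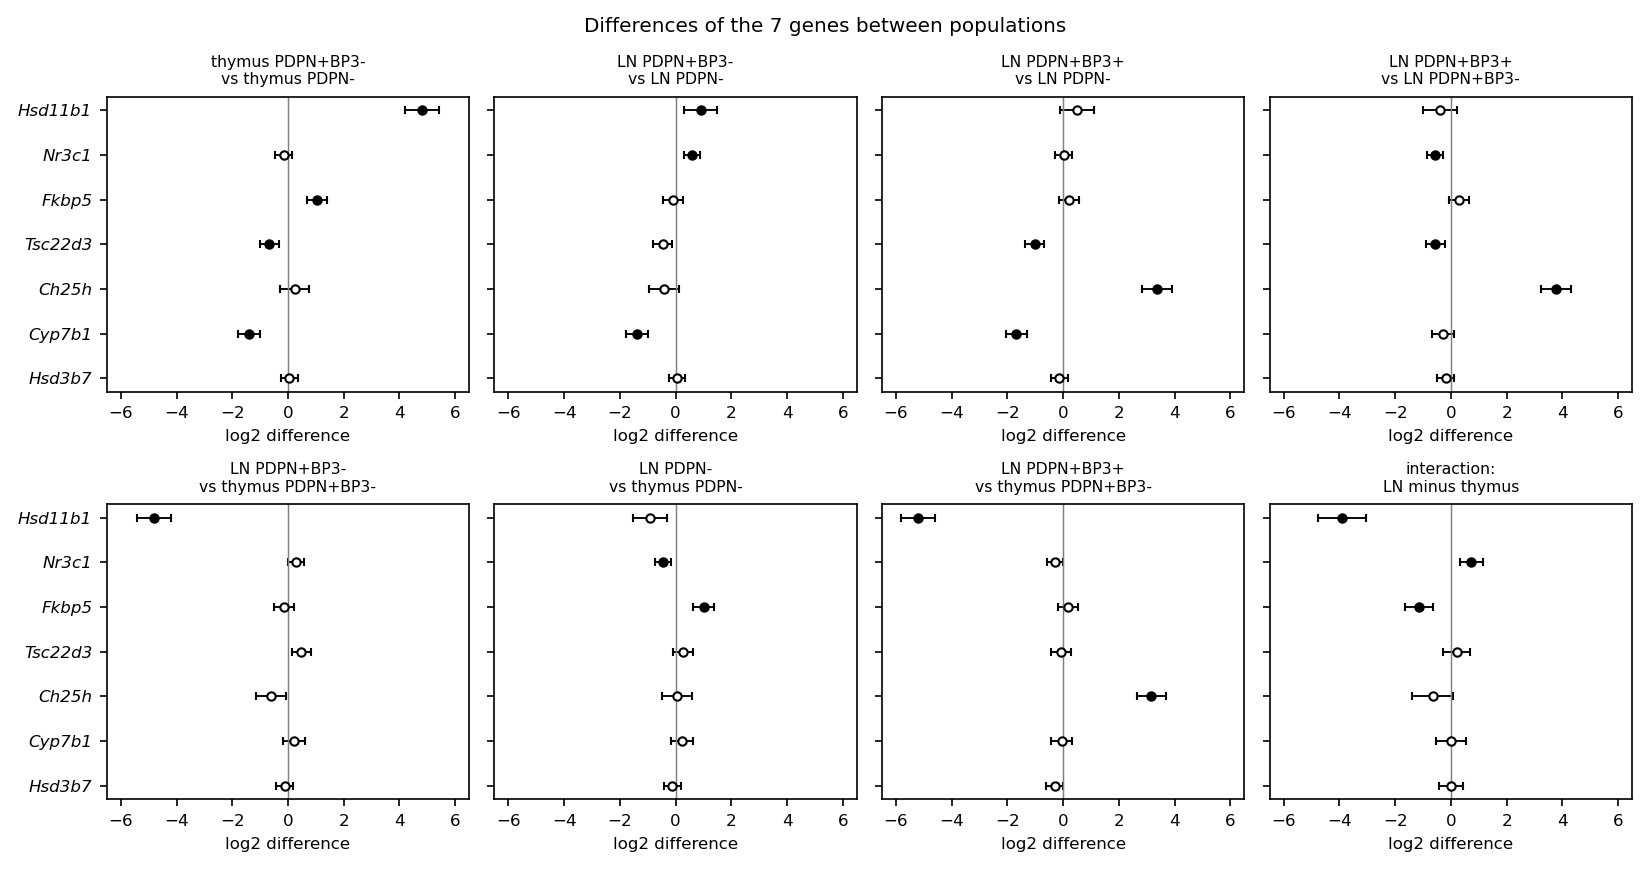
Differences of the 7 genes (log2, horizontal axis) in the 7 pairwise comparisons and in the contrast of the subset differences between organs (LN, lymph node), with 95% intervals (bars); filled points passed an adjusted p of 0.05. The largest differences are those of Hsd11b1 wherever thymus PDPN+BP3- cells were compared and of Ch25h wherever lymph node PDPN+BP3+ cells were compared.

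Set against the whole table, the members were read as follows. Between the thymus subsets, 4 of 7 passed the threshold (2 higher and 2 lower in PDPN+BP3- cells) where 28.5% of all genes did. Between lymph node PDPN+BP3- and PDPN- cells, 3 of 7 passed (2 higher, 1 lower) against 23.1% of all genes. The PDPN+BP3+ cells gave 3 of 7 against PDPN- cells (1 higher, 2 lower, 27.3% of all genes) and 3 of 7 against lymph node PDPN+BP3- cells (1 higher, 2 lower, 16.2% of all genes). Between organs, 1 of 7 passed in PDPN+BP3- cells (lower in lymph node, 17.1% of all genes) and 2 of 7 in PDPN- cells (1 higher, 1 lower, 9.61% of all genes). Lymph node PDPN+BP3+ against thymus PDPN+BP3- cells gave 2 of 7 (1 higher, 1 lower, 28.6% of all genes). The contrast of the subset differences gave 3 of 7 (1 higher, 2 lower) against 12.7% of all genes. The median difference of the members lay between -0.29 and 0.05 in the 7 pairwise comparisons, and that of all genes between -0.05 and 0.04. The 3 lymph node comparisons share arrays, and so do the comparisons that use a thymus population more than once, so their counts are not independent of each other. Of the genes past the threshold over the whole table, 36% were higher in thymus PDPN+BP3- than PDPN- cells, a share that was 55.5% under cyclic loess and 47.5% without PDPN+BP3- replicate 1. For lymph node PDPN+BP3+ against PDPN+BP3- cells the share was 52.3%, and 47.9% under cyclic loess. For the contrast between organs it was 68.2%, 42.2% under cyclic loess and 56.9% after median centring. Without thymus PDPN+BP3- replicate 1 the members past the threshold were 4 between the thymus subsets, 2 between organs in PDPN+BP3- cells, 3 for lymph node PDPN+BP3+ against thymus PDPN+BP3- cells and 3 in the contrast between organs.

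Among 11 measured genes of glucocorticoid conversion and transport, 3 were higher and 0 lower in thymus PDPN+BP3- than PDPN- cells, and 2 were higher and 0 lower in the same lymph node contrast. These shares are near or below those of all genes, 28.5% and 23.1%, and the thymus count was 3 and 0 without PDPN+BP3- replicate 1 too. The median differences were 0.23 and 0.12, against -0.05 and -0.01 over all genes. H6pd, which supplies the NADPH for Hsd11b1, was 7.87, 7.89 and 7.80 in thymus PDPN+BP3- cells and 6.58, 6.35 and 6.32 in thymus PDPN- cells. In lymph node it was 8.28, 8.33 and 7.95 in PDPN+BP3- cells, 8.28, 8.15 and 8.38 in PDPN+BP3+ cells and 6.54, 6.13 and 6.29 in PDPN- cells. All PDPN+ arrays exceeded all PDPN- arrays, in lymph node as in thymus, so H6pd was also high in the lymph node populations whose Hsd11b1 signal was near or below the table median.

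The H6pd difference was 1.44 ± 0.13 in thymus (limma adjusted p = 2.44e-07, and 1.43 without PDPN+BP3- replicate 1), 1.87 ± 0.13 between lymph node PDPN+BP3- and PDPN- cells (limma adjusted p = 1.38e-08) and 1.95 ± 0.13 between lymph node PDPN+BP3+ and PDPN- cells (limma adjusted p = 6.76e-09). The contrast did not pass the test of a difference between organs (0.43 ± 0.19, limma adjusted p = 0.155). Hsd11b2, which inactivates corticosterone, had population means of 3.53 to 4.03, around the table median, and passed in 1 pairwise comparison, PDPN+BP3+ against PDPN- cells of lymph node (0.50 ± 0.18, limma adjusted p = 0.0452). Between the thymus subsets Hsd11b2 differed by 0.23 (0.392), and by 0.47 without PDPN+BP3- replicate 1 (0.0256). Abcb1b, one of the mouse genes for P-glycoprotein, a pump that exports steroids, was 5.94, 5.58 and 5.75 on the lymph node PDPN+BP3+ arrays and 4.25, 4.66 and 3.75 on the lymph node PDPN+BP3- arrays, without overlap. The difference was 1.54 ± 0.19 (limma adjusted p = 1.68e-05). The remaining populations were below the table median, with means of 2.32 to 3.54.

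The mineralocorticoid receptor, Nr3c2, binds corticosterone too, and it was higher in the PDPN- cells of both organs, as Cyp7b1 was. Here too, podoplanin and Ly51 cannot be told apart. Nr3c2 signal was 5.18, 4.61 and 4.95 in thymus PDPN- cells and 5.94, 6.00 and 5.94 in lymph node PDPN- cells. The means of the PDPN+ populations were 2.90 to 3.56, below the table median. PDPN+BP3- cells were lower than PDPN- cells by -1.55 ± 0.20 in thymus (limma adjusted p = 1.18e-05) and by -2.40 ± 0.20 in lymph node (limma adjusted p = 8.78e-08), and the test of the difference between these contrasts gave -0.85 ± 0.28 (limma adjusted p = 0.0583). Leaving out thymus PDPN+BP3- replicate 1 gave a thymus difference in Nr3c2 of -1.38, and the contrast then passed at -1.02 (0.0211), as it did under cyclic loess (-1.06, 0.0117) and median centring (-0.94, 0.0190). Over the 11 measured genes of the receptor machinery, which include Nr3c2 with chaperones and coactivators, 0 were higher and 6 lower in thymus PDPN+BP3- cells, with a median of -0.44 against -0.05 over all genes, of which 28.5% passed. The count was 0 and 4 without PDPN+BP3- replicate 1, 0 and 5 after median centring, and 1 and 3 under cyclic loess. Among them were the chaperone partners Fkbp4 (-0.60 ± 0.14, limma adjusted p = 0.00296) and Stip1 (-0.57 ± 0.14, limma adjusted p = 0.00553). Fkbp4 did not pass under cyclic loess (-0.37, 0.0531), and without replicate 1 the values were -0.56 and -0.42. In the lymph node contrast 1 was higher and 1 lower (median -0.06 against -0.01), where 23.1% of all genes passed.

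**Figure D3:**
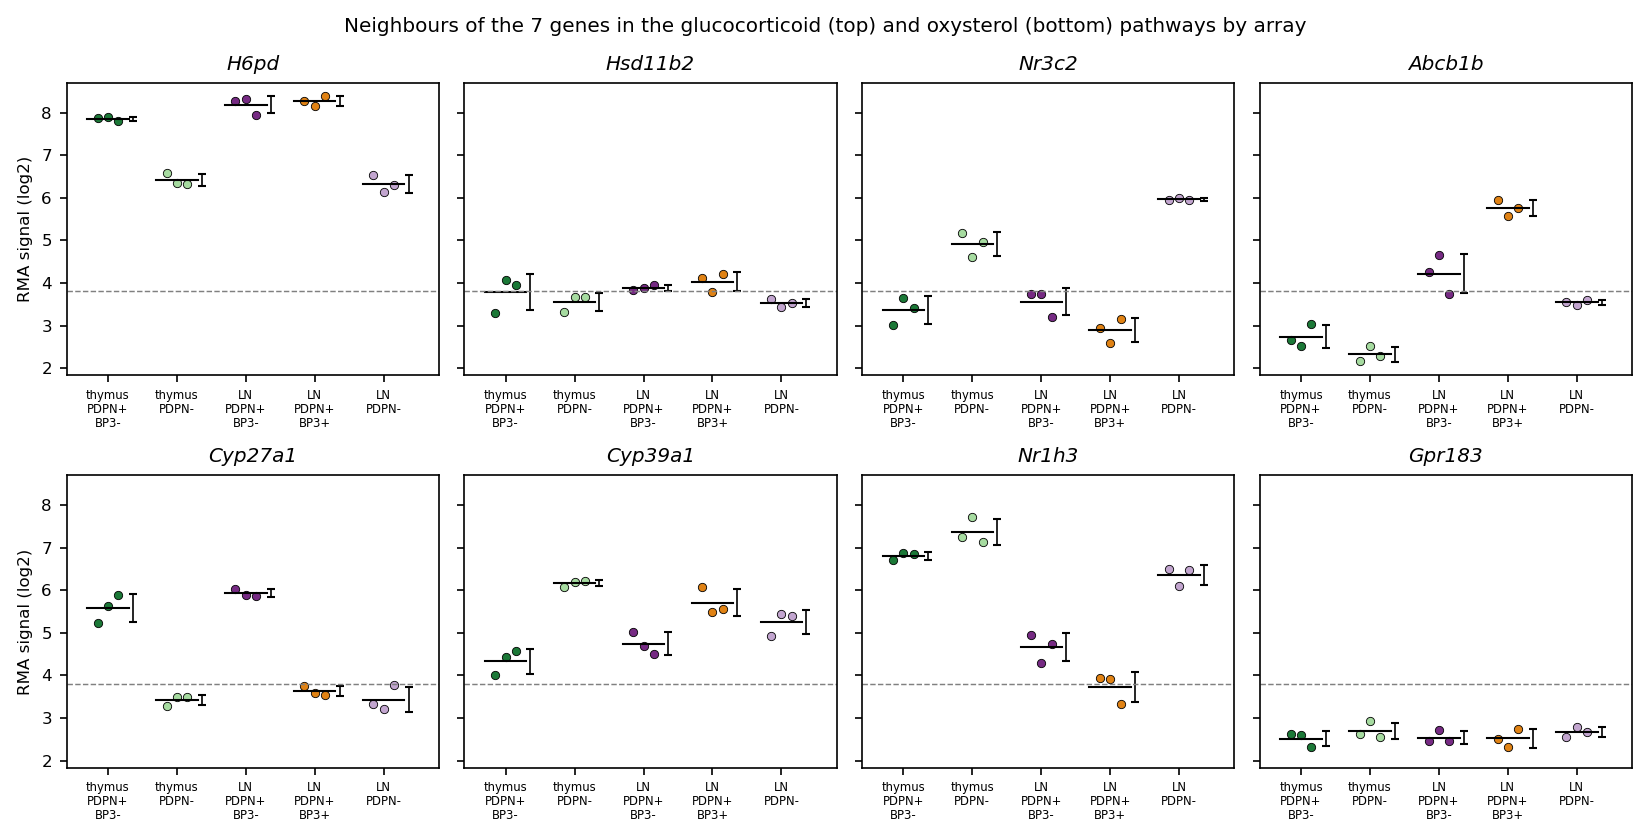
RMA signal (log2, vertical axis) by array (points) of 8 genes of the same pathways in the 5 populations (LN, lymph node), with population means (lines), SD (bars, n = 3 arrays) and the table median of 3.80 (dashed). H6pd is high in all PDPN+ populations, Nr3c2 in both PDPN- populations, Cyp27a1 in both PDPN+BP3- populations, and Gpr183 is below the table median throughout.

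Besides Fkbp5 and Tsc22d3, 24 genes known to be induced by the glucocorticoid receptor in various tissues were measured, and they did not move one way. Between the thymus subsets, 2 were higher and 6 lower in PDPN+BP3- cells, where Hsd11b1 was high, with a median of -0.22 against -0.05 over all genes. These 8 of 24 compare with 28.5% of all genes, and the split was 4 higher and 5 lower without PDPN+BP3- replicate 1, 4 and 6 after median centring, and 4 and 3 under cyclic loess. The cell cycle inhibitor Cdkn1c was higher by 1.54 ± 0.17 (limma adjusted p = 3.11e-06), at 7.07, 7.59 and 7.41 against 5.92, 6.06 and 5.48. The feedback inhibitor Errfi1 was lower by -0.73 ± 0.13 (limma adjusted p = 4.79e-04), and the NF-κB inhibitor Nfkbia by -0.75 ± 0.17 (limma adjusted p = 0.00255). Without replicate 1 these were 1.68 for Cdkn1c, -0.74 for Errfi1 and -0.57 for Nfkbia. Between lymph node PDPN+BP3- and PDPN- cells, 7 were higher and 3 lower, with a median of 0.34 against -0.01 and 23.1% of all genes past the threshold. The lipase inhibitor Angptl4 was higher by 1.69 ± 0.17 (limma adjusted p = 1.42e-06) and the transcription factor Klf15 by 1.68 ± 0.21 (limma adjusted p = 1.17e-05), while the mTORC1 inhibitor Ddit4 was lower by -2.08 ± 0.26 (limma adjusted p = 1.49e-05). The contrast of these subset differences between organs passed for 9 of the 24, 6 higher and 3 lower in lymph node, where 12.7% of all genes passed. It was 5 and 3 without thymus PDPN+BP3- replicate 1 and 4 and 3 under cyclic loess.

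Endothelial markers also differed between the lymph node populations. They averaged 3.90 to 4.31 on the lymph node PDPN+BP3- arrays, with 6 of 10 above the table median (Pecam1, Cdh5, Tek, Emcn, Lyve1 and Vwf), against 3.13 to 3.65 on the other 12 arrays. Of the 10, 4 were higher and 0 lower in lymph node PDPN+BP3- than PDPN- cells, where 23.1% of all genes passed. In PDPN+BP3+ against PDPN+BP3- cells 0 were higher and 6 lower (16.2% of all genes). In PDPN+BP3+ against PDPN- cells 1 was higher and 2 lower (27.3% of all genes). The part of endothelial cells in the counts of glucocorticoid-induced genes was not tested.

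Lymph node PDPN+BP3+ cells had low metallothioneins. Mt1 was 7.49, 7.35 and 7.78 there, against 9.56 to 10.38 on the other 12 arrays. Mt2 was 7.08, 7.02 and 7.11, against 9.93 to 10.61. Neither gene's PDPN+BP3+ arrays overlapped any other array, and both genes encode small metal-binding proteins that glucocorticoids and metals induce. Against lymph node PDPN+BP3- cells the differences were -2.61 ± 0.16 for Mt1 (limma adjusted p = 3.73e-09) and -3.34 ± 0.15 for Mt2 (limma adjusted p = 8.60e-11). Of the 24 genes, 1 was higher and 10 were lower in this comparison, with a median of -0.39 against 0.01 over all genes, of which 16.2% passed, 1589 higher and 1449 lower. Against lymph node PDPN- cells 5 were higher and 9 lower, with a median of -0.31 against 0.00 and 27.3% of all genes past the threshold, and Fkbp5, as given above, differed by 0.20 (interval -0.16 to 0.57). Of the 12 immediate early genes, 8 were also lower in PDPN+BP3+ than in lymph node PDPN- cells, and their part in these counts was not tested.

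**Figure D4:**
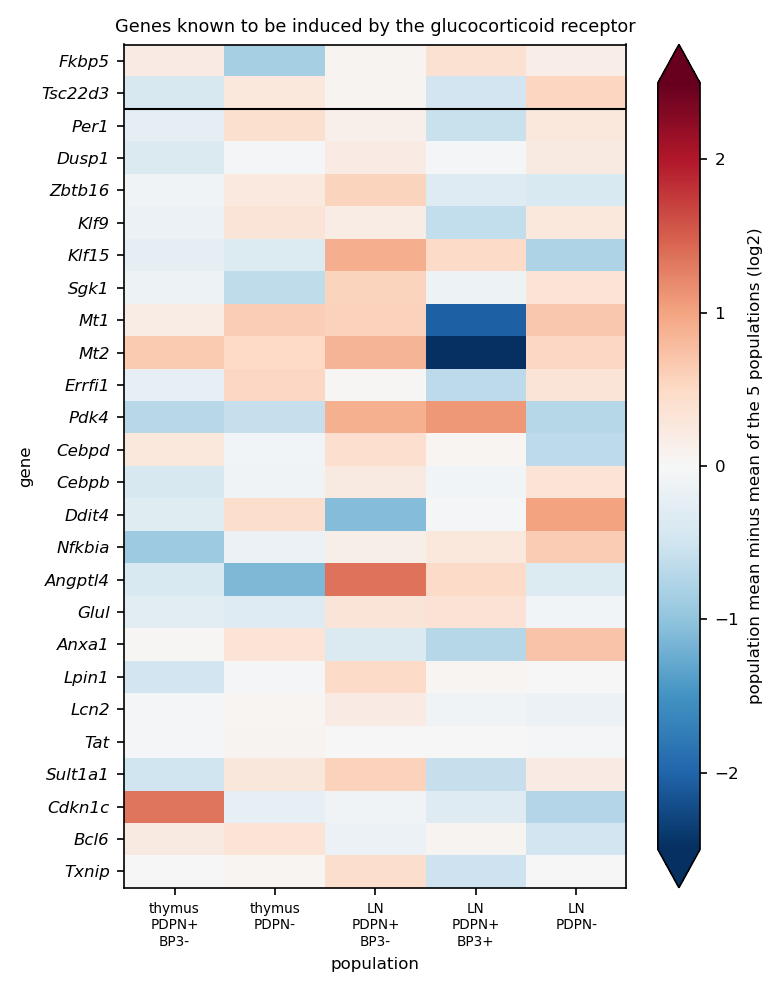
Population mean minus the mean of the 5 populations (log2, colour scale) of Fkbp5 and Tsc22d3 (above the line) and 24 other genes known to be induced by the glucocorticoid receptor, in the 5 populations (LN, lymph node). Mt1 and Mt2 are lowest in lymph node PDPN+BP3+ cells, Cdkn1c is highest in thymus PDPN+BP3- cells, and the rows do not share 1 pattern.

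Of 10 other measured enzymes of oxysterol synthesis, 1 was higher and 1 lower between the thymus subsets, where 28.5% of all genes passed, and the same without PDPN+BP3- replicate 1. Between lymph node PDPN+BP3- and PDPN- cells 1 was higher and 0 lower (23.1% of all genes). Cyp27a1, the mitochondrial enzyme that makes another side-chain oxysterol, was high in both PDPN+BP3- populations, at 5.24, 5.62 and 5.89 in thymus and 6.04, 5.90 and 5.86 in lymph node. All other arrays were at 3.21 to 3.77, below the table median, so that neither the Ch25h-high nor the Cyp7b1-high populations overlapped the Cyp27a1-high ones. PDPN+BP3- cells exceeded PDPN- cells by 2.16 ± 0.16 in thymus (limma adjusted p = 2.41e-08, and 2.33 without replicate 1) and by 2.50 ± 0.16 in lymph node (limma adjusted p = 5.94e-09), and lymph node PDPN+BP3+ cells were lower than PDPN+BP3- cells by -2.31 ± 0.16 (limma adjusted p = 2.55e-08). Cyp39a1, an oxysterol hydroxylase known chiefly from liver, was 6.08, 6.19 and 6.21 in thymus PDPN- cells, against 4.01, 4.43 and 4.57 in thymus PDPN+BP3- cells, a difference of -1.82 ± 0.19 (limma adjusted p = 1.38e-06), or -1.66 without PDPN+BP3- replicate 1. It was higher in lymph node PDPN+BP3+ than PDPN+BP3- cells by 0.97 ± 0.19 (limma adjusted p = 0.00164).

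Gpr183, the receptor for the product of Ch25h and Cyp7b1, had population means of 2.52 to 2.70, below the table median, and passed in none of the 8 limma comparisons (0 at an unadjusted p under 0.05). Its largest pairwise difference was -0.18 between the thymus subsets (adjusted p = 0.404). Of 10 measured sensors of oxysterols, 2 were higher and 3 lower between the thymus subsets (28.5% of all genes), but 4 higher and 1 lower without PDPN+BP3- replicate 1 and under cyclic loess. Among the nuclear sensors, Nr1h3 encodes LXRα. It was 6.70, 6.87 and 6.84 in thymus PDPN+BP3- cells and 7.25, 7.71 and 7.14 in thymus PDPN- cells. In lymph node it was 4.94, 4.30 and 4.74 in PDPN+BP3- cells, 3.95, 3.91 and 3.32 in PDPN+BP3+ cells and 6.51, 6.10 and 6.48 in PDPN- cells. Signal was thus highest in thymus, and the Ch25h-high PDPN+BP3+ cells had the lowest values, around the table median. They were lower than lymph node PDPN- cells by -2.64 ± 0.20 (limma adjusted p = 2.92e-08) and lower than lymph node PDPN+BP3- cells by -0.93 ± 0.20 (limma adjusted p = 0.00301). The PDPN+BP3- minus PDPN- difference in Nr1h3 was -0.56 in thymus and -1.70 in lymph node, and these differed by -1.14 ± 0.28 (limma adjusted p = 0.0131), or by -1.19 without thymus PDPN+BP3- replicate 1. The thymus difference itself (0.0449) was lost without that array (-0.51, 0.127), under cyclic loess (-0.31, 0.304) and after median centring (-0.51, 0.0535).

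Of 9 measured genes that LXR is known to induce, 4 were higher and 1 lower between the thymus subsets (median 0.35 against -0.05 over all genes, 28.5% of which passed), and 4 higher and 1 lower between lymph node PDPN+BP3- and PDPN- cells (0.45 against -0.01, 23.1% of all genes). The thymus count was 5 and 1 without PDPN+BP3- replicate 1 (median 0.60) and 7 and 1 under cyclic loess. The cholesterol exporter Abca1 was among the higher genes in both, by 0.73 ± 0.15 in thymus (limma adjusted p = 0.00116, and 0.80 without replicate 1) and by 1.48 ± 0.15 in lymph node (limma adjusted p = 9.20e-07). Scd1 and Apoe differed more, by 4.67 and 2.79 in thymus and by 2.75 and 2.29 in lymph node. Abcg1 was the lower gene of the lymph node contrast (-1.57 ± 0.19, limma adjusted p = 8.60e-06). Between lymph node PDPN+BP3+ and PDPN- cells 3 were higher and 3 lower (27.3% of all genes), and against lymph node PDPN+BP3- cells 0 were higher and 3 lower (16.2% of all genes). In the latter, the desaturase Scd1 was lower by -4.56 ± 0.21 (limma adjusted p = 1.52e-10), at 3.95, 3.12 and 3.60 against 8.11, 8.05 and 8.18. Of 18 measured genes of cholesterol synthesis and its control, 6 were higher and 2 lower in lymph node PDPN+BP3+ than PDPN- cells, with a median of 0.29 against 0.00 over all genes and 27.3% of all genes past the threshold, the lower ones being Hmgcs1 (-1.09 ± 0.25, limma adjusted p = 0.00328) and Idi1 (-1.32 ± 0.26, limma adjusted p = 0.00109). Between the thymus subsets 0 were higher and 1 lower, against 28.5% of all genes, with 1 and 1 without PDPN+BP3- replicate 1 and 2 and 1 under cyclic loess.

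For the 5 members whose population means spanned at least 1 on the log2 scale, the most similar genes were sought among 3839 genes with the same span, by Pearson r over the 15 arrays. These correlations describe a pattern over 5 populations, whose 3 arrays each are alike, and carry no p. Nearest to Hsd11b1 were Tnfrsf19, a receptor of the TNF family (r = 0.98), Aspa (0.98) and Ablim3 (0.98). Tnfrsf19 had a mean of 7.23 in thymus PDPN+BP3- cells and 2.74 to 2.94 elsewhere. Nearest to Ch25h were Mmd (0.98), the secreted glycoprotein Stc2 (0.97) and Dab1 (0.97). Stc2 had its highest mean, 7.40, in lymph node PDPN+BP3+ cells, with 2.97 to 3.87 elsewhere. Nearest to Cyp7b1 were Lmo7, Myof and Cnnm2 (0.97 each), nearest to Fkbp5 were Zbp1 (0.92), Itga2 (0.91) and Casp12 (0.90), and nearest to Tsc22d3 were Tmem50b, Dnajb4 and Nampt (0.94 each).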

How the data were processed

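The deposited values were RMA signals on a log2 scale, made by the authors with the Affymetrix Expression Console per the submitters' processing notes, from RNA amplified by Ovation Pico WTA V2 and hybridised to Mouse Gene 1.1 ST arrays per the labels' protocols. The software versions, the genome build and the log base are not given in the sources, and base 2 follows from the values' range. Of 24758 rows, 20844 had 1 gene symbol in the platform annotation, 1735 several and 2179 none, and keeping the row with the highest mean over the 15 arrays left 18718 genes. RMA normalises arrays to a common distribution, so a change in total RNA per cell is not seen. The number of arrays limits the precision.

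Population means were estimated from all 15 arrays in 1 linear model with limma 3.58.1 in R 4.3.3 (empirical Bayes, 10 residual and 5.50 prior degrees of freedom), without a filter on low values. P-values were adjusted by Benjamini-Hochberg over all genes of a comparison, with a threshold of 0.05. The 8 comparisons gave 56 tests of members, and the procedure was tested on simulated data. The members, the 7 pathway lists and the 9 marker lists were chosen with earlier results of these data known, so the tests of members are not independent evidence.

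Genes outside the members were drawn by rule: from each pathway list and pairwise comparison, up to 4 genes with the smallest adjusted p among those past the threshold. Gpr183, Nr1h3, Hsd11b2, H6pd, Nr3c2 and Cyp27a1 were drawn in every comparison. For each member spanning at least 1, the rule added the 3 most correlated genes. The text does not give every gene and comparison so drawn, and those given are a selection. Alternatives were the replicate number as a block, a fit on the compared populations only, a trended and robust prior, cyclic loess, median centring, removal of genes with every population mean below the table median, other handling of several rows per gene, and leaving out each array. For the lists, cyclic loess, median centring and leaving out thymus PDPN+BP3- replicate 1 were chosen after seeing the data. Promoter windows came from RefSeq (GRCm38.p6).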

Additional observations from a re-analysis of the deposited data

Results flagged for a closer look

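In 3 genes the subset difference, PDPN+BP3- minus PDPN-, itself differed between lymph node and thymus, as tested by the contrast of the 2 differences in the limma fit. For Hsd11b1 the lymph node difference minus the thymus difference was -3.91 (adjusted p = 6.82e-06), from 0.89 in lymph node and 4.80 in thymus. The lymph node difference passed in 9 of 14 other settings, and its arrays overlapped, near or below the table median. Among those settings was removal of low genes, which kept Hsd11b1 only through thymus PDPN+BP3- cells. For Nr3c1 the contrast was 0.74 (adjusted p = 0.0183), from 0.58 in lymph node and -0.16 in thymus. It passed in 17 of 20 other settings, and the thymus difference itself missed the threshold (limma adjusted p = 0.439). For Fkbp5 the contrast was -1.14 (adjusted p = 0.00488), from -0.10 in lymph node and 1.04 in thymus. Without thymus PDPN+BP3- replicate 1 the values were -3.83, 0.58 and -1.27. T lineage and epithelial markers were higher in the thymus arrays than in the lymph node arrays, pool size differed between the organs, and the part of these in the values was not tested or cannot be told apart from the organ. No member could be screened for a single outlying array, since populations of 3 arrays are too small for that.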

How the results depend on the processing

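The 7 members were tested again under 23 other settings, 8 that kept all arrays and 15 that left out an array, which gave 826 values. Of these, 784 kept their side of the threshold, 22 passed it where the value reported did not, and 20 no longer passed it. Of the values that passed, 0 turned in direction. Some that did not pass changed sign, such as Nr3c1 between the thymus subsets, which ran from -0.24 to 0.06 over the settings. In every setting run, the calls of Hsd11b1 against thymus PDPN+BP3- cells, of Ch25h in lymph node PDPN+BP3+ cells, of Cyp7b1 and of Fkbp5 were kept. So were those of Nr3c1 between lymph node PDPN+BP3- cells and either other lymph node population. Calls of Tsc22d3 were kept between the thymus subsets and between lymph node PDPN+BP3+ and PDPN- cells. The tests of the differences between organs in Hsd11b1 and Fkbp5 were kept as well.

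Members past the threshold between lymph node and thymus PDPN+BP3- cells numbered 1, and 2 under cyclic loess, under median centring and with low genes removed. Leaving out 1 array gave 1 to 2, with 2 without thymus PDPN+BP3- replicate 1 or 3 or lymph node PDPN+BP3- replicate 2. Between the PDPN- cells of the organs the 2 became 1 to 3 when an array was left out: 1 without any 1 thymus PDPN- array or without lymph node PDPN- replicate 2 or 3, and 3 without lymph node PDPN- replicate 1. Lymph node PDPN+BP3+ against thymus PDPN+BP3- cells gave 2, 3 without thymus PDPN+BP3- replicate 1, and 4 under cyclic loess and median centring, which added Nr3c1 (adjusted p = 0.00149 and 0.0154) and Hsd3b7 (0.00916 and 0.0283). The causes were not tested. Removing low genes lowered the number of genes tested and moved the median of all genes by up to 0.21, and median centring moved it by up to 0.13.

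Replicate numbers were shared by the populations, but same-numbered arrays correlated at -0.17 to 0.29 in their deviations and in no comparison was every correlation over 0.1, so they were treated as numbers only. With the replicate block, the members past the threshold numbered 4, 3, 3, 3, 1, 2 and 2 in the pairwise comparisons and 3 in the contrast between organs, as without it. In PDPN- cells between organs, Hsd11b1 passed with the replicate block (-0.91, adjusted p = 0.0206) and Nr3c1 did not (-0.45, 0.0681).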
